A study of Mus musculus with 2 samples.

Results

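The 6 genes described here, Pcx, Pck1, Fbp1, G6pc, Slc37a4 and Slc2a2, encode the enzymes and carriers that distinguish glucose production from glucose breakdown and that release the product. They were chosen by symbol from the 32285 genes listed in each library, and their unique molecular identifiers (UMIs, one per captured RNA molecule) were counted in proximal tubule (PT) cells and in the other cell classes that marker genes defined. The data came from 2 single-cell libraries of postischemic kidney of male C57BL/6 mice, 9 weeks old, taken 24 h after bilateral ischemia-reperfusion surgery. The control mouse received saline and the other mouse received JPI-289, an inhibitor of poly (ADP-ribose) polymerase, at 100 mg/kg, both into the peritoneal cavity just before blood flow was restored. Both mice had the ischemic injury, and no uninjured kidney was used here. Each condition is 1 mouse and 1 library, so no test between the conditions was possible, no p-value is given, and an effect of JPI-289 cannot be told apart from a difference between 2 mice or 2 libraries. Intervals are 95% intervals, exact Poisson for levels, exact binomial for shares and log2 ratios, and they cover counting error only. Those of a difference between 2 log2 ratios are normal approximations on the log scale, also for counting error only.

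Gluconeogenesis makes glucose from lactate, glutamine and other precursors. Besides liver, the kidney cortex is the main site of this pathway in mammals, and within the nephron it is placed in the PT, which takes up lactate and glutamine and has little capacity for glycolysis. Pyruvate carboxylase (Pcx) makes oxaloacetate in mitochondria, and the cytosolic phosphoenolpyruvate carboxykinase (Pck1) converts oxaloacetate to phosphoenolpyruvate. Fructose-1,6-bisphosphatase (Fbp1) bypasses phosphofructokinase. The glucose-6-phosphate transporter (Slc37a4) moves the next intermediate into the endoplasmic reticulum, where the catalytic subunit of glucose-6-phosphatase (G6pc) frees glucose. Glucose then leaves the cell through the basolateral carrier GLUT2 (Slc2a2).

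Of 38328760 UMIs in all for control and 35548396 for JPI-289, those of 3756 and 5045 called cells were used (median depth 2051 and 1866 UMIs). Levels are given as CPM, the UMIs of a gene divided by all UMIs of the same cells and multiplied by 1000000. A total of 23 cell barcodes occurred in both libraries. Clusters with PT markers held 1825 control and 1710 JPI-289 cells. These PT-like cells had 8153324 and 7412241 UMIs, a median of 2197 and 1756.5 each. The other classes were named from markers in the same way. The 6 genes were left out of the clustering. Each of the 7 PT-like clusters came to over 90% from 1 library, so a cluster can be a library as well as a kind of cell. Of the 10 general PT markers, 8 had a lower level in the JPI-289 PT-like cells, among them the endocytic receptors Lrp2 (432 and 61.1 CPM, control and JPI-289) and Cubn (123 and 9.17), while Kap (4944 and 7882) and Miox (619 and 852) were higher. The markers of injured PT summed to 404 CPM in control and 1598 in JPI-289 PT-like cells, and Havcr1, which encodes kidney injury molecule 1, was at 115 and 454 CPM. Of the 6 injury markers, 4 were higher and 2 lower in JPI-289, the latter being Vcam1 (2.09 and 0.405 CPM) and Itgb6 (87.2 and 47.8). The part of this difference in PT state in the values below was not tested.

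In PT-like cells, all 6 genes had a lower level in the JPI-289 library, with the smallest gap at the mitochondrial entry step and the largest at the release of glucose. For Pcx, 799 UMIs in control and 401 in JPI-289 PT-like cells gave levels of 98.0 (91.3 to 105) and 54.1 (48.9 to 59.7) CPM. The log2 ratio, always JPI-289 over control, came to -0.86 (-1.03 to -0.68), the smallest difference among the 6. Pcx lies on chromosome 19 from 4510472 to 4621752 of GRCm38.

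Pck1, the committed cytosolic step, had 57788 UMIs in control PT-like cells, a level of 7088 CPM (7030 to 7146). In JPI-289 PT-like cells it had 7717 UMIs, or 1041 CPM (1018 to 1065), a log2 ratio of -2.77 (-2.80 to -2.73). In both libraries Pck1 stood above its level in neutrophils (945 and 91.7 CPM). Fbp1 had 8447 and 2819 UMIs, or 1036 (1014 to 1058) and 380 (366 to 395) CPM, a log2 ratio of -1.45 (-1.51 to -1.38). Pck1 lies on chromosome 2 from 173153048 to 173159273 and Fbp1 on chromosome 13 from 62864753 to 62888282 of GRCm38, the latter on the minus strand.

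The endoplasmic reticulum pair and the glucose carrier had the lowest ratios of the 6. G6pc had 1852 UMIs in control and 23 in JPI-289 PT-like cells, or 227 (217 to 238) and 3.10 (1.97 to 4.66) CPM. Its log2 ratio of -6.16 (-6.86 to -5.60) corresponds to a 71.7-fold lower level. Its partner Slc37a4 had 1395 and 108 UMIs, or 171 (162 to 180) and 14.6 (12.0 to 17.6) CPM, a log2 ratio of -3.55 (-3.85 to -3.27). Slc2a2 had 839 and 25 UMIs, or 103 (96.1 to 110) and 3.37 (2.18 to 4.98) CPM, a log2 ratio of -4.90 (-5.57 to -4.36). G6pc lies on chromosome 11 from 101367561 to 101377903, Slc37a4 on chromosome 9 from 44396852 to 44402968, and Slc2a2 on chromosome 3 from 28697903 to 28731359 of GRCm38. In the GENCODE vM21 annotation no exon of another gene overlaps an exon of any of the 6.

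A level at least 2-fold lower in the JPI-289 library was found for 5 of the 6 genes, all except Pcx, against 23.7% of the 11363 genes with at least 20 UMIs in PT-like cells. The median log2 ratio of the 6 was -3.16 and that of all 11363 genes -0.20. Of the 11363 genes, 11 had a lower ratio than G6pc, 53 a lower ratio than Slc2a2, 221 than Slc37a4 and 450 than Pck1, whereas 1701 had a lower ratio than Fbp1 and 3092 than Pcx. Pcx and Fbp1 were therefore within the range of many other genes counted in PT-like cells, and G6pc was near the lower end of all genes. Low ratios were not particular to the 6. All 8 markers of S1, the first PT segment, were lower in JPI-289 PT-like cells (2403 and 765 CPM summed), from Slc5a12 at -5.95 to Slc5a2 at -0.31. Of the 10 general PT markers, 8 were lower, with Gatm lowest at -4.46, and 2 were higher. The PT-like clusters in which markers of injured PT lead were then left out, which kept 1771 control and only 319 JPI-289 cells. The log2 ratio was -4.07 for Pck1 and -0.96 for Fbp1, and 4 of the 6 were at least 2-fold lower. The share of all genes at this fold was not counted after this split, so the 4 cannot be set against it. Havcr1 did not follow this split, since it was at 813 CPM in the 319 JPI-289 cells kept and at 242 in the 1391 left out. Of the 319 JPI-289 cells kept, 294 were 1 cluster led by Kap, which held only 5 control cells. The ratios after this omission thus set mainly that cluster against control cells mostly of other clusters. An effect of leaving out injured cells cannot be told apart from this.

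**Figure D1:**
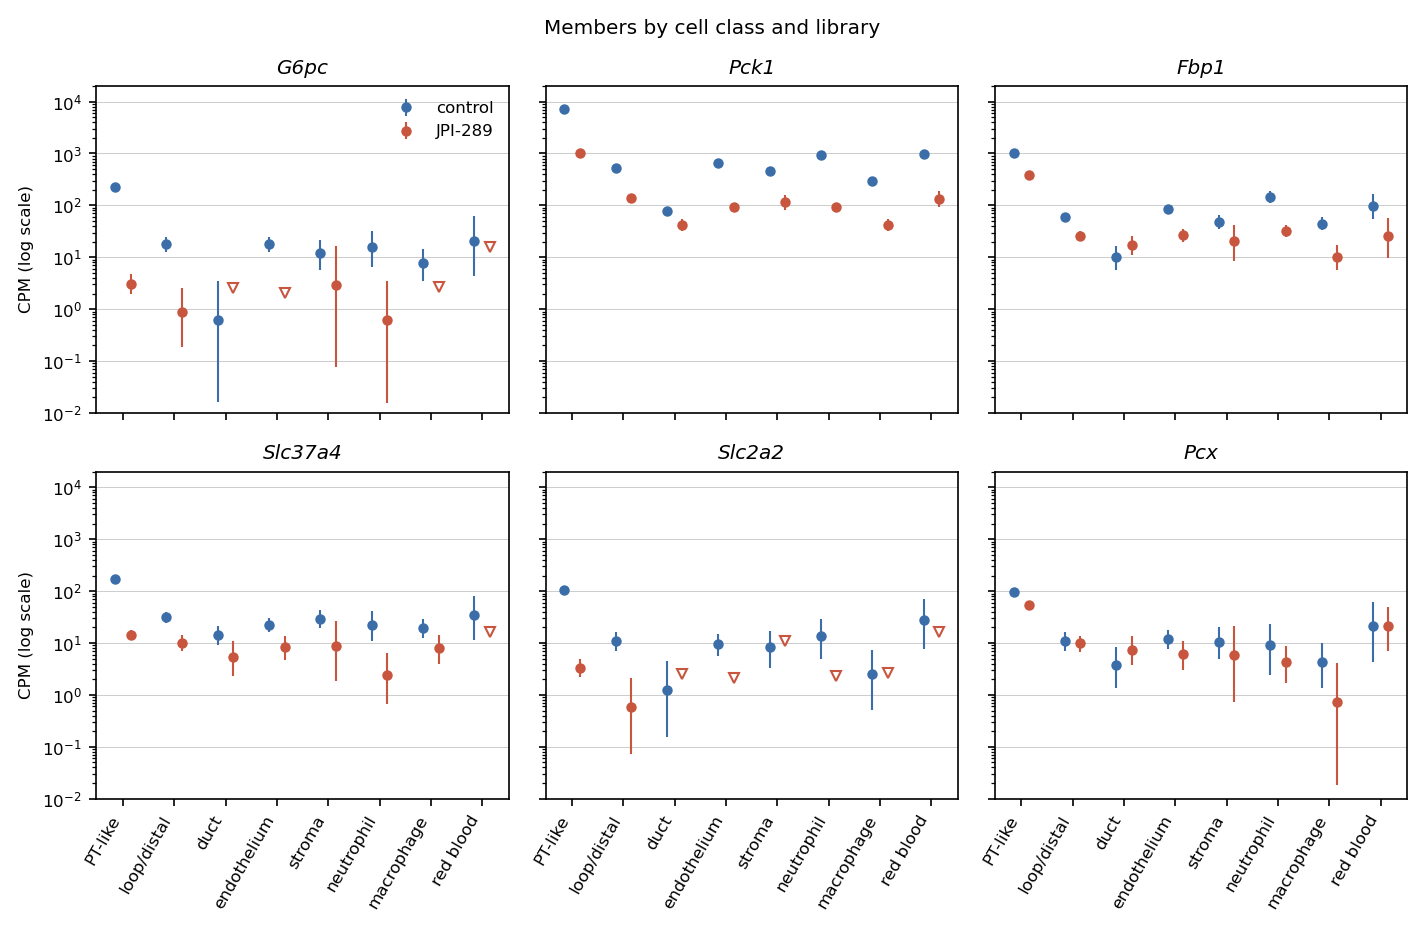
CPM (log axis) of each of the 6 genes in 8 cell classes of the control (blue) and JPI-289 (red) library, 1 library per condition. Bars are exact 95% Poisson intervals, and open triangles mark the upper bound where no UMI was counted. In control, all 6 genes are highest in PT-like cells (G6pc 227 CPM), whereas G6pc in JPI-289 PT-like cells (3.10) lies within the intervals of other classes.

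Levels were ordered over the 8 classes with at least 50 cells in each library, which leaves out podocytes (12 control and 50 JPI-289 cells) and lymphocytes (7 and 100). Across these 8 classes of the control library, every one of the 6 genes was highest in PT-like cells, with an interval above those of the 7 others. Pck1 followed at 972 CPM (817 to 1148) in red blood cells and 945 (857 to 1040) in neutrophils, which could not be told apart, then at 645 in endothelial cells, 514 in loop of Henle and distal tubule cells, 452 in stroma, 299 in macrophages and 76.6 in duct cells. Of these neighbours, loop of Henle and stroma also had overlapping intervals. Fbp1 ran from 147 CPM (113 to 187) in neutrophils to 10.0 (5.74 to 16.3) in duct cells among the 7 classes outside the PT. G6pc, Slc37a4, Slc2a2 and Pcx were between 0.628 and 35.0 CPM in the 7 other classes, and among these classes each overlapped its neighbour in the order. In the JPI-289 library, PT-like cells again had the highest value of the 8 classes for all 6, but with an interval above those of the 7 others only for Pck1 and Fbp1. For G6pc the next class was stroma at 2.96 CPM (0.0751 to 16.5, 1 UMI), for Slc37a4 loop of Henle and distal tubule at 10.1 (7.02 to 14.2), and for Pcx red blood cells at 21.7 (7.03 to 50.5). Slc2a2 had 2 UMIs in loop of Henle and distal tubule cells and none in the 6 other classes, some of which were too shallow to tell from PT-like cells (up to 16.0 CPM in red blood cells). In the classes left out, JPI-289 lymphocytes had Slc37a4 at 28.0 CPM (10.3 to 60.9, 6 UMIs), above the 14.6 of PT-like cells with overlapping intervals, and JPI-289 podocytes had Pcx at 27.0 (3.27 to 97.4, 2 UMIs). The 12 control podocytes and 7 control lymphocytes had Fbp1 at 195 (53.1 to 499) and 204 (42.0 to 595), and for G6pc, Slc37a4, Slc2a2 and Pcx the interval of at least 1 of these small classes reached that of control PT-like cells.

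RNA set free from broken cells enters every droplet and adds UMIs to cells that do not express a gene. Barcodes with fewer than 100 UMIs, taken as free RNA, held Pck1 at 5041 CPM in control and 710 in JPI-289. They were 245519 control and 197419 JPI-289 barcodes with 441021 and 343770 UMIs, a small part of each library. Barcodes with 100 or more UMIs that were not called as cells are not among them, so this set holds only part of the RNA outside called cells. G6pc was at 163 CPM (72 UMIs) in control free RNA and at 2.91 (0.0736 to 16.2, 1 UMI) in JPI-289 free RNA. Of the 6 genes, 5 were thus lower in the free RNA as well, with log2 ratios of -5.24 (-11.1 to -3.29) for G6pc, -2.83 (-3.02 to -2.64) for Pck1, -1.89 (-2.31 to -1.50) for Fbp1, -4.80 (-10.7 to -2.83) for Slc37a4 and -3.89 (-9.80 to -1.85) for Slc2a2. The interval for Pcx, which had only 29 and 12 UMIs there, included no difference (-0.88, -2.02 to 0.10). The share of all genes with a lower level in free RNA was not counted. Counted over every barcode with a UMI, with no calling of cells and no clusters, G6pc had 5905 and 66 UMIs and a log2 ratio of -6.36 (-6.75 to -6.03). The ratio over all barcodes was -2.90 for Pck1, -1.78 for Fbp1, -3.43 for Slc37a4, -5.20 for Slc2a2 and -0.96 for Pcx. In a whole library, fewer PT cells and less RNA per PT cell cannot be told apart.

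Relative to Pck1, the 5 other genes had intervals in control neutrophils that overlapped those in control free RNA. For Fbp1 there were 15.5 UMIs per 100 of Pck1 (11.8 to 20.2) in neutrophils and 13.5 (12.0 to 15.3) in free RNA. Slc37a4 departed from this ratio outside the PT. It had 2.38 per 100 Pck1 UMIs (1.78 to 3.13) in control free RNA, but 6.11 (4.75 to 7.75) in loop of Henle and distal tubule cells, 6.50 (4.07 to 9.91) in macrophages, 6.56 (4.19 to 9.84) in stroma and 18.9 (11.5 to 29.6) in duct cells. The 99 control duct cells had a median of 12470 UMIs, far above the other classes. In JPI-289 PT-like cells the proportions differed from control PT-like cells: per 100 Pck1 UMIs, Fbp1 had 36.5 (35.0 to 38.1) against 14.6 (14.3 to 15.0), Pcx 5.20 (4.69 to 5.75) against 1.38 (1.29 to 1.48), and G6pc 0.298 (0.189 to 0.448) against 3.20 (3.06 to 3.36).

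Within the PT, the labels of segments came from marker genes, and S1-like cells (415 control, 206 JPI-289) and cells of clusters led by Kap (182 and 295) could be set apart. No cluster met the rule for S3, the straight part in the outer medulla, and 1228 control and 1209 JPI-289 PT-like cells had no segment. S1-like cells were 2 clusters almost wholly of control cells and 1 of JPI-289 cells led by Fgb, Fgg and Spink1. In that JPI-289 cluster the mean log2 ratio over the median cluster was 1.40 for the S1 list. It was 0.98 for injury markers and 0.54 for general PT markers, so injury markers lead there, which they did not in the 2 control clusters. The S1-like ratios below therefore differ in this respect as well as in library. The Kap-led cells were 1 cluster of 177 control cells and 1 of 294 JPI-289 cells, in which the S2 list scored above those of S1 and S3. Slc22a6 and Slc13a3, carriers of S2, were among the 10 leading genes of the control cluster. The leading genes of the JPI-289 cluster held the injury markers Krt20 and Havcr1 and none of the S2 list. Its mean log2 ratio over the median cluster was 1.71 for injury markers and 1.58 for the S2 list, so the pair is named by Kap and not by a segment. It was 1.99 for general PT markers, so by the rule used injury markers do not lead there. Its injury score was nevertheless above those of the clusters where they lead (1.24 and 0.98). In control, G6pc was at 358 CPM in S1-like and 89.1 in Kap-led cells, Slc2a2 at 167 and 45.4, Pck1 at 6094 and 4090, Fbp1 at 878 and 589, and Slc37a4 at 224 and 167. Pcx was at 105 and 121. The 1228 control cells with no segment had Pck1 at 9745 CPM and Fbp1 at 1442, above both of these groups. They had G6pc at 169, Slc37a4 at 119, Slc2a2 at 69.3 and Pcx at 77.8, with a median depth of 1427 UMIs. The median depth was 4715 UMIs in S1-like and 5165 in Kap-led control cells.

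Of the 6 genes, all but Pcx had a log2 ratio that differed between S1-like and Kap-led cells beyond counting error. The median log2 ratio of all genes was -0.36 in S1-like and 0.12 in Kap-led cells. Fbp1 was at 878 CPM in control and 186 in JPI-289 S1-like cells, but at 589 and 538 in Kap-led cells. The log2 ratio was thus -2.24 (-2.40 to -2.08) in S1-like and -0.13 (-0.25 to -0.013) in Kap-led cells, a difference of -2.11 (-2.30 to -1.91) beyond counting error. Pck1 went the other way, with -2.29 (-2.35 to -2.23) in S1-like and -3.27 (-3.36 to -3.18) in Kap-led cells, a difference of 0.98 (0.88 to 1.09). Since each of these clusters is nearly 1 library, cluster and library cannot be fully told apart, and Havcr1 was at 46.3 and 258 CPM in S1-like and at 357 and 805 in Kap-led cells.

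For G6pc the log2 ratio was -6.35 (-7.65 to -5.45) in S1-like cells, from 1159 to 8 UMIs, and -4.06 (-5.01 to -3.32) in Kap-led cells, from 155 to 14. Slc37a4 was at -4.80 and -2.79 and Slc2a2 at -5.87 and -3.70. The difference was -2.28 (-3.53 to -1.04) for G6pc, -2.02 (-2.84 to -1.20) for Slc37a4 and -2.17 (-3.72 to -0.62) for Slc2a2. Pcx was at -0.99 in S1-like and -0.97 in Kap-led cells, a difference of -0.016 (-0.45 to 0.42). In PT-like cells with no segment G6pc was at -8.29 (-14.2 to -6.39), from 538 to 1 UMI, which overlaps the interval of S1-like cells. At least 2-fold lower were 5 of the 6 genes in S1-like cells, against 29.7% of 9927 genes there, and 4 of the 6 in Kap-led cells, against 14.6% of 9067 genes. One S1-like cluster, with 207 control and 2 JPI-289 cells, had the nuclear RNAs Neat1 and Malat1 among its 10 leading genes, besides PT carriers such as Slc13a1 and Slc5a12. Without it, an alternative added after the data were seen, the ratio was -2.46 for Fbp1 and -1.005 (-1.35 to -0.68) for Pcx. The change for Pcx, from -0.99, is within counting error. All 10 general PT markers were lower in S1-like cells of the JPI-289 library, and 7 of the 10 in Kap-led cells. Lrp2 had log2 ratios of -3.12 in S1-like and -2.40 in Kap-led cells and Cubn -4.48 and -3.06, whereas Slc34a1, the phosphate carrier, had -2.04 and 0.32, and Ass1 -2.11 and 0.26.

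**Figure D2:**
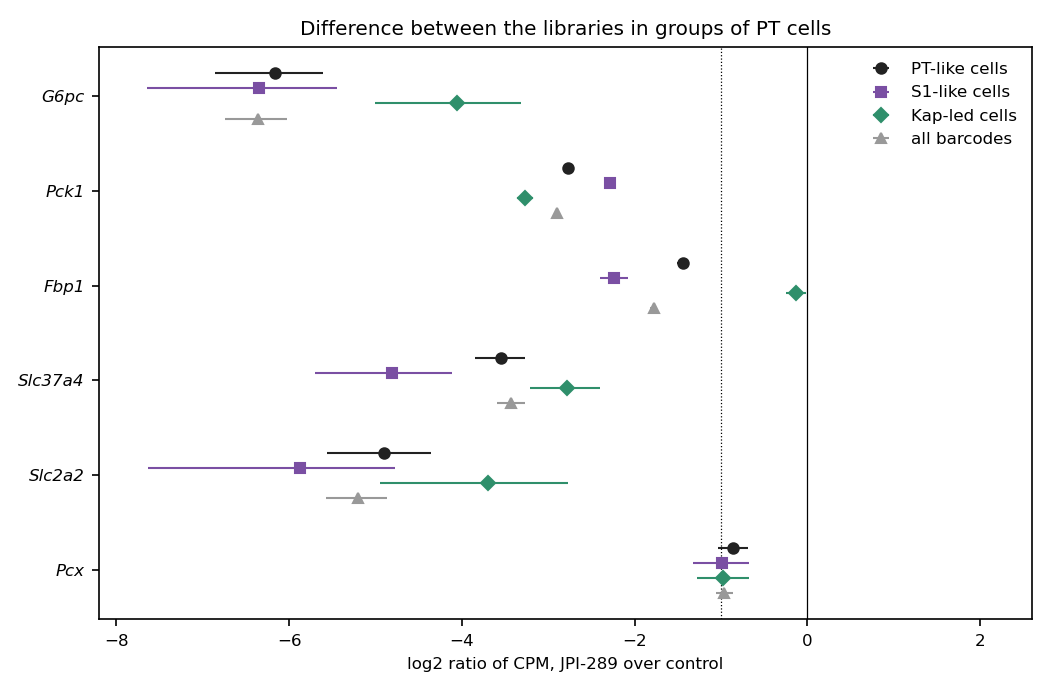
Log2 ratio of CPM, JPI-289 over control, for the 6 genes in PT-like, S1-like and Kap-led cells and over all barcodes, 1 library per condition. Bars are exact 95% binomial intervals of counting error, the solid line is no difference and the dotted line a 2-fold lower level. Fbp1 lies near 0 in Kap-led cells (-0.13) and at -2.24 in S1-like cells.

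To compare cells of unequal depth, each cell was thinned to 1000 UMIs, which kept 1350 control and 1157 JPI-289 PT-like cells. A UMI of Pck1 was found in 97.0% of control PT-like cells (96.0 to 97.9) and in 46.7% of the treated ones (43.8 to 49.6). The same shares among neutrophils, a class that should not express the gene, came to 51.7% of 178 control and 9.11% of 582 JPI-289 cells. All 198 control and 656 JPI-289 neutrophils had a median depth of 1973 and 2035.5 UMIs without thinning. Before thinning, Pck1 was found in 98.6% and 61.4% of PT-like cells. The higher share in control neutrophils goes with the higher free Pck1 of that library.

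After thinning, G6pc was detected in 17.6% of control PT-like cells (15.6 to 19.8) but in 4 JPI-289 cells, or 0.346% (0.0943 to 0.883). In control neutrophils the share was 1.12%, and in JPI-289 neutrophils 0 of 582 cells, for which the exact interval reaches 0.632%. Fbp1 was detected in 58.8% and 30.3% of PT-like cells against 14.0% and 2.92% of neutrophils, Slc37a4 in 14.4% and 0.519% against 3.37% and 0 of 582, Slc2a2 in 8.44% and 0.432% against 0.562% and 0 of 582, and Pcx in 8.37% and 4.32% against 0.562% and 0.687%. In the JPI-289 library, the thinned shares of G6pc, Slc37a4 and Slc2a2 in PT-like cells could not be told from the limit that 0 of 582 neutrophils allows. Thinned to 500 UMIs, which kept all 1710 JPI-289 PT-like cells, the Slc37a4 share was 0.760% (0.405 to 1.30), no lower than at 1000. Both the set of cells and the random draw differed between these depths, and their parts were not tested. Unthinned, the shares for these 3 genes were 30.9%, 33.6% and 23.5% in control and 0.819%, 5.09% and 1.35% in JPI-289. In unthinned JPI-289 neutrophils they were 0.152% (0.00386 to 0.846) for G6pc, 0.610% (0.166 to 1.55) for Slc37a4 and 0 of 656 cells for Slc2a2. Slc37a4 in JPI-289 PT-like cells, at 5.09% (4.09 to 6.24) and 14.6 CPM, was thus above its neutrophil share and level (2.46 CPM, 0.670 to 6.30). Slc2a2, at 1.35% (0.854 to 2.01), was above the 0.561% that 0 of 656 neutrophils allows. Its level of 3.37 CPM (2.18 to 4.98) overlapped the neutrophil interval, which reaches 2.27 CPM. The G6pc share (0.448 to 1.37) overlapped that of neutrophils.

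Counted together at 1000 UMIs, none of the 6 genes had a UMI in 1.78% of control PT-like cells, against 37.7% in the JPI-289 library. A UMI of at least 3 of them was seen in 25.0% (337 cells) and 1.38% (16 cells). The median was 2 genes per control and 1 per JPI-289 cell. Of neutrophils, 41.0% and 88.0% had none. The spread among PT-like cells was wide in both libraries for Pck1, whose thinned count had a 10th percentile of 2, a median of 7 and a highest value of 56 in control, and of 0, 0 and 24 in JPI-289.

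**Figure D3:**
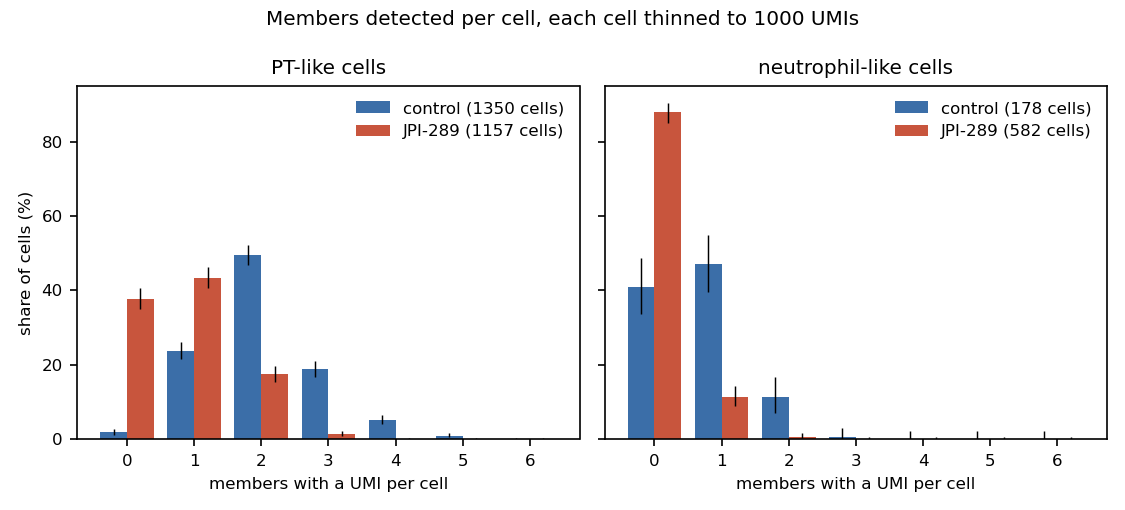
Share of cells (%) by the number of the 6 genes with a UMI, after thinning each cell to 1000 UMIs, for PT-like cells (left) and neutrophil-like cells (right) of both libraries. Bars start at 0 and lines are exact 95% binomial intervals. Control PT-like cells peak at 2 genes, JPI-289 PT-like cells at 1, with 37.7% at 0.

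PT-like cells with and without a Havcr1 UMI were also set side by side. In control, Pck1 was at 4707 CPM (4289 to 5154) in the 99 thinned cells with Havcr1 and at 8298 (8139 to 8459) in the 1251 without. G6pc was at 101 (48.4 to 186) and 270 (242 to 301) and Fbp1 at 606 (462 to 780) and 1201 (1141 to 1264). In JPI-289, Pck1 was at 906 (799 to 1023) in 287 cells with Havcr1 and 1483 (1403 to 1566) in 870 without, and G6pc at 3.48 (0.0882 to 19.4, 1 UMI) and 3.45 (0.711 to 10.1, 3 UMIs). The 870 JPI-289 cells without a Havcr1 UMI were therefore below the 99 control cells with one for Pck1, G6pc and Fbp1 (407, 366 to 452). They were also lower for Slc37a4, at 2.30 (0.278 to 8.30, 2 UMIs) and 162 CPM (92.4 to 262). For Slc2a2 the levels were 3.45 (0.711 to 10.1, 3 UMIs) and 50.5 (16.4 to 118). For Pcx the intervals overlapped, at 43.7 (30.9 to 59.95) in the 870 and 50.5 (16.4 to 118) in the 99. Cells with no Havcr1 UMI can still express it at this depth, and cells of 1 mouse are not replicates.

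Of 7 isoforms of the same enzymes and carriers, 4 had enough UMIs in PT-like cells, of which 1 was at least 2-fold lower and 1 at least 2-fold higher in the JPI-289 library. G6pc3, the ubiquitous glucose-6-phosphatase, was at 26.0 CPM in control and 26.7 in JPI-289, a log2 ratio of 0.039 (-0.25 to 0.33). Mitochondrial Pck2 was at 6.38 and 5.26, a log2 ratio of -0.27 (-0.92 to 0.35). Slc2a1, which encodes the glucose carrier GLUT1 used for glucose uptake, was higher at 9.69 and 19.8 CPM, a log2 ratio of 1.03 (0.63 to 1.45). Its log2 ratio was 0.19 in S1-like and 1.18 in Kap-led cells. Fbp2, the muscle fructose bisphosphatase, was the lower one, with 107 and 37.9 CPM, a log2 ratio of -1.49 (-1.69 to -1.30). In PT-like cells a level at least 2-fold lower was found for 23.7% of the 11363 genes and one at least 2-fold higher for 9.13%.

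Of the 8 genes of reversible steps that gluconeogenesis shares with glycolysis, 7 differed by less than 2-fold. At least 2-fold lower was 1, which is not reported here by name, and none was higher, against 23.7% and 9.13% of all 11363 genes. The median log2 ratio was -0.15. Aldoa, an aldolase of most tissues, was at 882 and 961 CPM (0.12). Tpi1 was at -0.80, and Pgam1 at 0.16. Gapdh was at 5292 and 4737 CPM (-0.16).

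Among the genes by which lactate, glutamine and malate carbon enters, 5 of 13 measured were at least 2-fold lower and none higher, against 23.7% and 9.13% of all 11363 genes, with a median of -0.75. Slc38a3, the glutamine transporter of the basolateral PT membrane, had 518 UMIs in control and 1 in JPI-289, a log2 ratio of -8.30 (-14.2 to -6.39). The mitochondrial dicarboxylate carrier Slc25a10 had 3435 and 757 UMIs (-2.04, -2.16 to -1.93). Ldha and Got1 were slightly higher, at 0.21 and 0.25. All 6 genes of glycerol and fructose entry were at least 2-fold lower in PT-like cells, against 23.7% of all 11363 genes, with a median of -1.998. These included the fructose carrier Slc2a5, with 244 and 12 UMIs (-4.15, -5.18 to -3.38), glycerol kinase Gk (-3.16, -3.32 to -3.02), ketohexokinase Khk (-1.44) and the glycerol channel Aqp7 (-1.71). Khk was at -2.61 in S1-like but -0.37 in Kap-led cells, so not all 6 were at least 2-fold lower in the latter.

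Of 12 measured genes of the irreversible steps of glycolysis and the fructose 2,6-bisphosphate switch, 7 were at least 2-fold lower and 1 higher, against 23.7% and 9.13% of all genes, with a median of -1.36. Of the glycolytic enzymes themselves, only Pfkm, a phosphofructokinase, was at least 2-fold lower (-2.02), while Hk1 was at -0.13, Pfkl at -0.87 and Pfkp at -0.84. The 6 others that were lower were Pfkfb1 to Pfkfb4, the bifunctional enzymes, and the kinases Pdk1 and Pdk2. Pdk4, a kinase that shuts pyruvate dehydrogenase, was the higher one, with 1229 and 8471 UMIs, or 151 and 1143 CPM, a log2 ratio of 2.92 (2.84 to 3.01). Its relative Pdk2 was lower, at 202 and 30.1 CPM (-2.75, -2.96 to -2.55). Pfkfb4, of the bifunctional enzymes that set fructose 2,6-bisphosphate, had 54 and 2 UMIs (-4.31, -7.70 to -2.69), and muscle pyruvate kinase Pkm was at 28.2 and 49.5 CPM (0.81, 0.57 to 1.06).

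**Figure D4:**
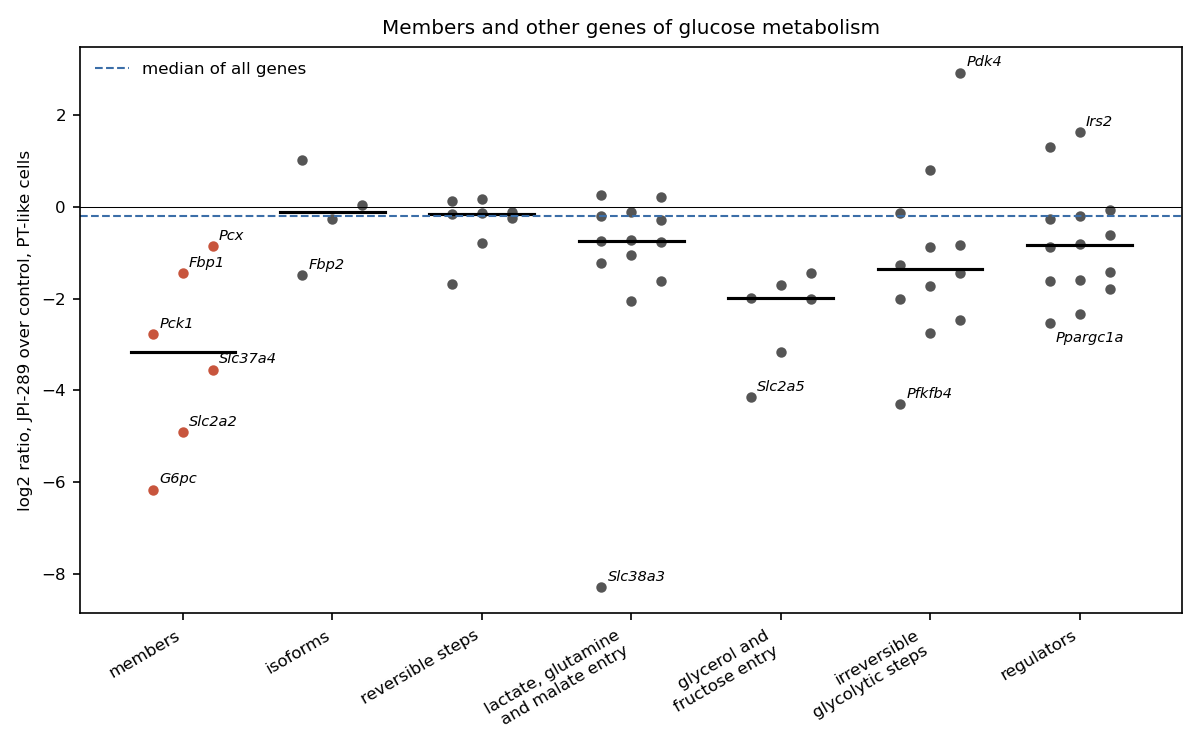
Log2 ratio of CPM in PT-like cells, JPI-289 over control, for the 6 genes (red) and the measured genes of 6 other lists (grey), 1 library per condition. Each point is a gene, black bars are medians and the dashed line is the median of all 11363 genes (-0.20). The 6 genes have a median of -3.16, the reversible steps -0.15, and Pdk4 is at 2.92.

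Of 14 regulators of the pathway, 6 were at least 2-fold lower and 2 higher in JPI-289 PT-like cells, against 23.7% and 9.13% of all 11363 genes, with a median of -0.84. Among the lower were Ppargc1a, the coactivator of mitochondrial and gluconeogenic genes, at 35.4 and 6.07 CPM (-2.53, -3.03 to -2.09), the insulin receptor Insr (-2.35, -2.74 to -1.99), the PT transcription factor Hnf4a (-1.78), Klf15 (-1.60) and Ppara (-1.41). Higher were Irs2, an adaptor of insulin signalling, at 13.7 and 42.8 CPM (1.63, 1.32 to 1.96), and Crtc2, a coactivator of CREB, at 24.5 and 60.6 (1.30, 1.06 to 1.55). Foxo1 (-0.19, -0.44 to 0.048) and Cebpb (-0.068, -0.16 to 0.022) had intervals that included no difference.

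By the correlation of log2 levels over 8 classes in both libraries (16 points that share free RNA and depth), the genes most like the mean of the 6 were Slc13a1, the PT sulfate carrier and itself a PT marker (Pearson r 0.99), Cpn1 (0.98), Aspa (0.98), Vnn1 (0.98) and Fitm1 (0.98). The others of the first 10 included Cmbl, Acnat2, Adra2b and Gm19950. In PT-like cells, the 10 genes had log2 ratios from -2.34 (Gm19950) to -3.85 (Slc13a1). Since PT-like cells of both libraries are among the points, a ratio near that of the 6 is part of how the 10 were chosen. Among the 6 themselves, the r with their mean was highest for Pck1 (0.97) and lowest for Pcx (0.85).

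The start region of Pck1, the gene with the most UMIs of the 6, is shown since it holds the letters of a half-site of the cAMP response element, the known site of CREB, the partner of Crtc2. The stretch ends before the first base of the GENCODE gene, which lies upstream of the RefSeq start (RefSeq window, GRCm38.p6, plus strand, chr2:173152823-173153047). Capitals mark the match to TGACG, on the opposite strand.
Pck1: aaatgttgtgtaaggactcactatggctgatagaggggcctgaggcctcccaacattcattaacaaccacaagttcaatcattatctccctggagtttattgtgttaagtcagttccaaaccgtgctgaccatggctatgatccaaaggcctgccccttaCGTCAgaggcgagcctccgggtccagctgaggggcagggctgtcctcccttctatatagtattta
Among 4 motifs searched on both strands, TGACG was found in the windows of Pck1 and Slc37a4, and in 20.8% of all 32851 windows of 300 bases (250 before to 50 after the start). TATAAA lay 29 bases before the RefSeq start of G6pc and 32 before 1 of 3 starts of Slc37a4, and in 13.6% of all windows. CAAAGTCCA, of HNF4, and TGTTTAC, a core of FOXO or FOXA sites, were in none of the windows of the 6 genes, and are in 0.475% and 3.65% of all. The windows of Fbp1, Slc2a2 and both starts of Pcx held none of the 4. A match is a description of letters and not a binding site.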

How the data were processed

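The deposited values are raw UMI counts of every barcode, which the authors made from 10x 5′ libraries and, per the submitters' processing notes, Cell Ranger 5.0.1 on mm10. Empty droplets, cells rich in mitochondrial RNA and doublets are still in them. Symbols are those of the files, and each of the 6 genes matched 1 identifier.

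Cells were called by total UMIs (over 3338 for control and 2618 for JPI-289, the 99th percentile of the top 3000 barcodes divided by 10) and, from 500 UMIs, by deviation from the profile of barcodes ranked 45000 to 90000 (10000 simulations, false discovery rate 0.01). PT cells resemble the free RNA, so shallow ones may be missed. Cells over 50% mitochondrial UMIs (543 and 397) were left out. Scrublet marked 1 of 8801 cells and so did not work, and doublets remain. Counts scaled to 10000 UMIs per cell were clustered on 2000 variable genes, 30 components and 20 neighbours (Leiden, resolution 1), without the 6 genes and the 62 listed ones.

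Clusters took a class from marker lists if the mean log2 ratio over the median cluster was at least 0.75 with 3 markers at 20 CPM and their 10 leading genes did not hold more markers of another class. A segment needed a score of 1 and a lead of 0.5. Injury markers were said to lead in a PT-like cluster where their score was above that of the general PT markers. These rules were set after the clusters were seen. UMIs were summed per class and library, and ratios had 0.5 added to each sum. Genes with at least 20 UMIs entered the counts over all genes. The named genes are the 6, per list the 2 with the lowest and the 2 with the highest ratio, and the 10 with the highest r. Further regulators, markers and Gapdh were named after their values were seen. Levels of 5′ counts are compared within a gene, between cells or libraries. The members and lists were chosen with earlier results of these data known. The intervals of log2 ratios and the calling of cells were tested on simulated data, and the other steps, among them the naming of clusters, were not. Clustering ran in scanpy 1.11.5 with leidenalg 0.10.2, and intervals came from scipy 1.17.1 (Python 3.11.15). Some listed genes enter the counts but are not reported here by name, and a further motif is not reported here.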

Additional observations from a re-analysis of the deposited data

How the results depend on the processing

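Under the 15 alternatives, all 6 genes kept a lower level in the JPI-289 library, and G6pc, Pck1, Slc37a4 and Slc2a2 were at least 2-fold lower under each. Fbp1 was so under 14, the exception being the omission of clusters where injury markers lead, which left mainly Kap-led cells in JPI-289. Pcx was under none in PT-like cells, with log2 ratios from -0.996 to -0.66. The ranges were -6.89 to -5.44 for G6pc, -4.07 to -2.56 for Pck1, -1.78 to -0.96 for Fbp1, -3.66 to -2.81 for Slc37a4 and -5.20 to -4.57 for Slc2a2. The median of the 6 was -2.96 when the median of all genes, -0.20, was set to 0, which moves every ratio by that amount. It was -3.44 without the clusters where injury markers lead, and the cause of that change was not tested. The share of genes at least 2-fold lower in PT-like cells was 18.7% with at least 100 UMIs per gene and 33.1% with at least 1. Free RNA made up an estimated 9.06% of the UMIs of control PT-like cells and 3.48% in JPI-289, from markers of blood and endothelial cells. The neutrophil markers among them summed to 257 CPM in control and 73.3 in JPI-289 PT-like cells. Yet 5 of these 7 were higher in JPI-289 and 2 lower, and red blood cell markers summed to 113 and 144 CPM. The gap between the 2 estimates may thus rest on few markers, which was not tested. Cells over 2000 UMIs and all barcodes were added after seeing the data. Shares of cells with a UMI depend on depth. No paired analysis was possible because each condition has 1 library, and for the same reason no replicate could be left out.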
